A study of Homo sapiens with 3 samples.

Results

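Insulin-like growth factor (IGF) genes were followed in the established gastric cancer line HGC-27, which is human, as 10 named genes of the 58735 in the deposited table: the ligand IGF2, the binding proteins IGFBP2 to IGFBP7, and the receptors IGF1R, IGF2R and INSR. They were chosen by gene symbol, not by their values, although earlier results from the same libraries were known when the set was drawn up. The symbols matched 11 rows, because IGF2 has a pair of identifiers. RNA-seq was run on 2 libraries labelled shUSP16, called shUSP16-1 and shUSP16-2, from cells carrying a short hairpin RNA against the deubiquitinase gene USP16, and on 1 library labelled shControl, whose genotype is given as wild type and whose column is named for a scrambled hairpin. All cells were grown in medium with 10% serum. The protocol text shared by all 3 libraries also describes 1 µM dexamethasone with 0.5 mM isobutylmethylxanthine and later 10 µg/ml insulin. Whether these cells received that treatment is unclear, and insulin is itself a ligand of INSR.

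IGF1 and IGF2 are secreted growth factors that signal through the receptor tyrosine kinase IGF1R and, for IGF2 and insulin, through INSR. IGF2R is no signalling receptor of this kind: it takes up IGF2 for breakdown in lysosomes and sorts lysosomal enzymes tagged with mannose 6-phosphate. The IGF-binding proteins hold IGFs outside the cell, which can withhold them from IGF1R or carry them to it, and are released from their cargo by proteases. In gastric and other epithelial cancers the axis is known for promoting growth and survival.

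Whole reads recovered from the deposited FPKM (fragments per kilobase of gene, scaled to library size) summed to between 29530581 and 31187845 per library. The numbers 1 and 2 of the libraries labelled shUSP16 may mark hairpins or repeats, and no label says that the cultures were separate, so a p-value here reflects only how far these libraries differ, which may be technical. USP16 itself had 4.29 FPKM in shUSP16-1 and 5.98 FPKM in shUSP16-2, against 6.28 FPKM in shControl, so the library labelled shUSP16-2 showed little loss of the targeted mRNA. USP16 reads relative to shControl gave ratios of 0.683 (95% interval 0.621 to 0.749) in shUSP16-1 and 0.952 (0.875 to 1.04) in shUSP16-2. With sums of reads as totals they were 0.639 (0.582 to 0.702) and 0.876 (0.805 to 0.953), so the loss in shUSP16-2 was beyond counting error under that scaling alone. Intervals of ratios are exact binomial ones and cover counting error only. Markers of epithelium (6 genes, KRT8, KRT18 and EPCAM among them) summed to 0.206 to 0.718 FPKM per library, and the 8 gastric mucosa markers to 0.125 to 0.327 FPKM, with KRT19 and MUC5AC at 0 reads in all 3 libraries, so neither set was present at an appreciable level. Of 7 fibroblast markers 6 had a mean of at least 1 FPKM, with COL3A1 at 173 FPKM in shUSP16-1, 248 FPKM in shUSP16-2 and 192 FPKM in shControl. Endothelial, leukocyte and adipocyte markers each summed to 0.252 FPKM or less in every library.

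The promoters of IGFBP3, IGFBP4, IGFBP5 and IGF2R are printed because these 4 genes, picked after their values were seen, had the largest mean differences from shControl among the members and were higher in both libraries labelled shUSP16. Each run is the 250 bases 5′ of a RefSeq start site (GRCh38.p14), and capitals mark every match to the motifs named after the sequences.
IGFBP3 (chr7:45921273-45921522, minus strand): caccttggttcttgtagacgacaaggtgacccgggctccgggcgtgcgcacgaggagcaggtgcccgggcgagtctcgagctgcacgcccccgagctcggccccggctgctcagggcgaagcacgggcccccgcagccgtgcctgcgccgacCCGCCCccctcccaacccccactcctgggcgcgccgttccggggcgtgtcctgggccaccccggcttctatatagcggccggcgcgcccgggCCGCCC
IGFBP4 (chr17:40443200-40443449, plus strand): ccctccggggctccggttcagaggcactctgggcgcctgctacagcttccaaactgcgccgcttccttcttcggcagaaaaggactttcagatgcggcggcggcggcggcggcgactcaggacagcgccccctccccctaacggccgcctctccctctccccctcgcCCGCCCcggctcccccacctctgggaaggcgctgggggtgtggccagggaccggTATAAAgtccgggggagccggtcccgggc
IGFBP5 (chr2:216695550-216695799, minus strand): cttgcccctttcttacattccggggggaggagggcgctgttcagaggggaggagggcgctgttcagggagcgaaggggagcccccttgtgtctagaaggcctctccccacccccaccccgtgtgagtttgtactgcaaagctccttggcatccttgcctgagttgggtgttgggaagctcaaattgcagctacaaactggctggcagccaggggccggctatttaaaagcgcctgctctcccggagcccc
IGF2R (chr6:159968832-159969081, plus strand): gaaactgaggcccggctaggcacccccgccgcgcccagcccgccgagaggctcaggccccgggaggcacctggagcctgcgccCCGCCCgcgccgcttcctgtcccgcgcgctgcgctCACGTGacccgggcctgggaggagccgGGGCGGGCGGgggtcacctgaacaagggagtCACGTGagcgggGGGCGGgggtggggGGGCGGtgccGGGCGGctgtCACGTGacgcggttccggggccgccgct

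The TATA box was searched as TATAAA on the sense strand only. The GC box GGGCGG was searched on both strands, as were all further motifs. The E-box CACGTG is bound by MYC and MAX among others, and the hypoxia-inducible factor core ACGTG lies inside it. TGANTCA was used for AP-1 and GTAAACA for FOXO factors. Windows were found for 8 of the 10 genes. The IGF2R window held 3 E-boxes, at -132, -74 and -28 from the start site, and 6 GC boxes. Across 35116 promoter windows of the same length, 6.34% held an E-box and 0.0797% held 3 or more. The limit of 3 is the count in the IGF2R window itself, so the latter share is no test of rarity. The IGFBP4 window held a TATA box at -29, found in 6.80% of all windows, and 1 GC box. The IGFBP3 window held 2 GC boxes, a motif found in 42.6% of all windows, and none of the motifs matched in the IGFBP5 window. AP-1 and FOXO motifs matched in 6.57% and 2.98% of all windows and in none of these 4. GC content was 76.0% for IGFBP3, 71.6% for IGFBP4, 61.2% for IGFBP5 and 79.2% for IGF2R, against a median of 58.0% over all windows. It was 81.2% for IGF1R, 78.4% for INSR, 61.2% for IGFBP6 and 56.4% to 69.2% over the IGFBP2 windows. High GC content was therefore not particular to the 4 printed promoters. The 4 promoters thus shared no motif of this list, and a match is a string of letters, not a shown binding site.

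The binding proteins made up most of the IGF axis mRNA in these cells. IGFBP4 had the highest level of the 10 genes in every library, and IGFBP5, IGFBP2 and IGFBP7 took the next ranks in each. IGFBP2 ranked below IGFBP5 in both libraries labelled shUSP16 and above it in shControl. In the libraries labelled shUSP16, IGFBP6 averaged 9.43 ± 0.498 FPKM, IGFBP3 8.71 ± 5.00 FPKM and IGF1R 6.61 ± 0.113 FPKM (SD, n = 2 each). IGFBP3 thus did not differ from these neighbours in the order beyond its own spread, while IGFBP6 lay above IGF1R in every library. IGF2, the only ligand among the members, was the lowest in each. Summed over IGFBP2 to IGFBP7, binding protein mRNA was 183 FPKM in shUSP16-1 and 227 FPKM in shUSP16-2, against 166 FPKM in shControl. IGFBP4 supplied 33.7% of that sum in shUSP16-1 and 41.6% in shUSP16-2, against 33.5% in shControl, while IGFBP3 supplied 2.83% and 5.39%, against 2.14%. The level and the makeup of the pool in shUSP16-1 were therefore nearer to shControl than those of shUSP16-2 for IGFBP4 and IGFBP3, whereas IGFBP5 supplied 24.3% in shUSP16-1 and 18.9% in shUSP16-2, against 18.9% in shControl.

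**Figure D1:**
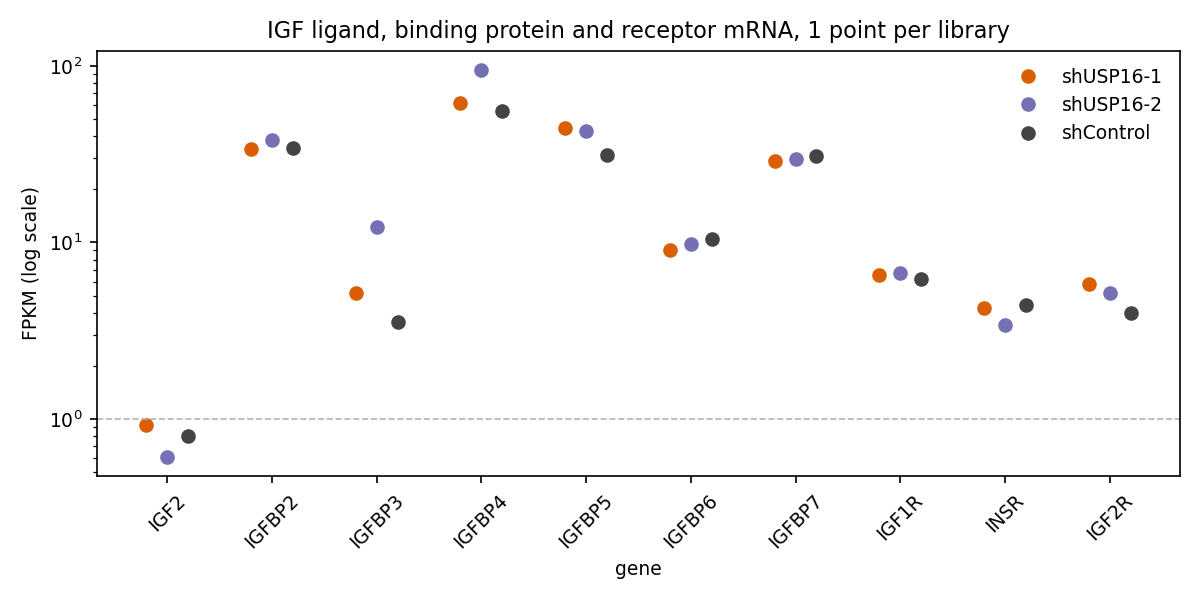
FPKM on a log axis for each of the 10 genes, with 1 point per library and the dashed line at 1 FPKM, the minimum mean for testing. IGFBP4 is the highest gene in all 3 libraries, IGF2 lies under the line in all 3, and IGFBP3 stands at 5.18 FPKM in shUSP16-1 and 12.3 FPKM in shUSP16-2, against 3.56 FPKM in shControl.

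**Figure D2:**
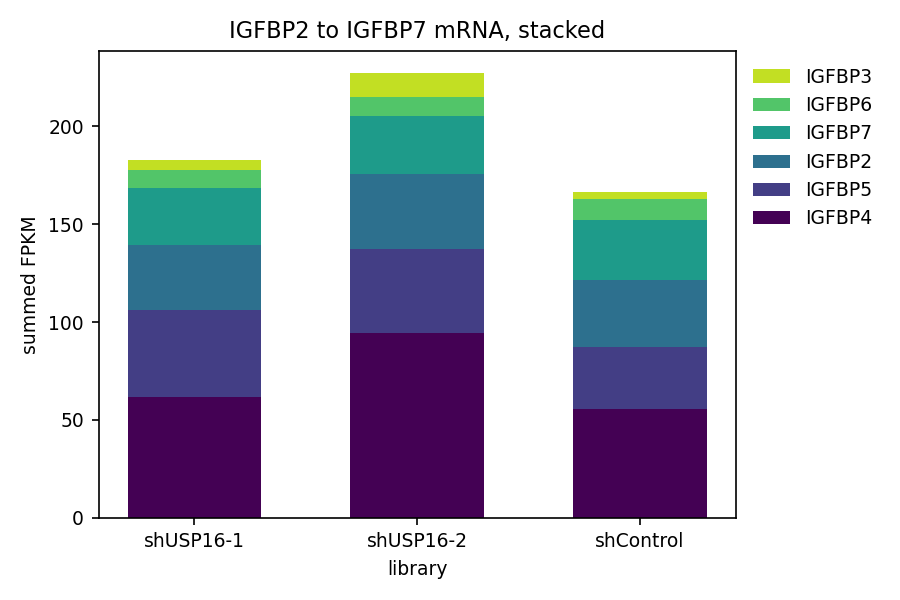
FPKM of IGFBP2 to IGFBP7 stacked for each library, starting at 0. The stacks reach 183 FPKM in shUSP16-1, 227 FPKM in shUSP16-2 and 166 FPKM in shControl, and the IGFBP4 block accounts for most of the extra height of shUSP16-2.

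The comparison of shUSP16 with shControl asks whether targeting USP16 goes with a change in these genes. Of the 9 members with a mean of at least 1 FPKM, 5 were higher in both libraries labelled shUSP16, 3 were lower in both and 1 was mixed. Over the 13852 genes tested, 44.9% were higher in both and 32.4% lower in both, so the split among members says little by itself. With the authors' scaling IGFBP3, IGFBP5 and IGF2R were at least 25% higher in both, a size that 9.55% of all tested genes reached. With sums of reads as totals IGF2R in shUSP16-2 was under that size, at a ratio of 1.20 to shControl. Of the tested members 0 were at least 1.5-fold higher in both (2.05% of all genes) or lower in both (4.26%). limma on log2(FPKM + 1), fitted over all 13852 genes with Benjamini-Hochberg adjustment, called 0 members and 0 genes in all (0%). At an unadjusted p under 0.05 limma had 2 members, IGFBP5 and IGF2R, and 2008 genes (14.5%). The median difference of the 9 members on the log2(FPKM + 1) scale was 0.08, against 0.04 over all genes tested. Over all genes with a mean of 5 FPKM or more, a level that every tested member but IGF2R and INSR reached, it was 0.11. limma had 1 residual degree of freedom per gene and assumed that the lone control varies like the libraries labelled shUSP16.

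IGFBP3, the main carrier of IGFs in blood and a gene known to be growth-inhibitory in many cells, differed most in size. IGFBP3 (ENSG00000146674, chromosome 7, 45912245 to 45921874, minus strand, GRCh38) had 5.18 FPKM (707 reads) in shUSP16-1 and 12.3 FPKM (1736 reads) in shUSP16-2, against 3.56 FPKM (530 reads) in shControl. Both libraries labelled shUSP16 lay above shControl, and shUSP16-2 stood far above shUSP16-1. Relative to shControl the ratio was 1.45 in shUSP16-1 (95% interval 1.30 to 1.63) and 3.44 in shUSP16-2 (3.12 to 3.80). Between shUSP16-2 and shUSP16-1 the ratio was 2.37 (2.17 to 2.59). Of the 7639 genes whose mean was 5 FPKM or more, 22 (0.288%) were at least 2-fold higher in shUSP16-2 than in shUSP16-1. IGFBP3 was picked after its values were seen, and its mean includes its high value in shUSP16-2, so that share is no test of rarity. Of all 13852 genes tested, 483 (3.49%) were at least 2-fold apart between these libraries in either direction. In limma the log2 difference was 0.99 with an SE of 0.44 (adjusted p = 0.380, not called). limma voom on recovered reads gave 1.06 and an adjusted p of 0.0460 with sums of reads as totals, but 1.17 and an adjusted p of 0.0714 with the authors' totals, where 1.00% and 1.47% of all genes were called higher. Without shUSP16-2 the difference was 0.44, and without shUSP16-1 it was 1.54, so its size rests on shUSP16-2, the library with the smaller loss of USP16 mRNA. Summed fibroblast markers were also highest in that library, at 288 FPKM in shUSP16-1 and 394 FPKM in shUSP16-2, against 296 FPKM in shControl, with 0 of the 7 at 0 reads, and their part in the IGFBP3 and IGFBP4 values was not tested. In bulk RNA, more cells of a type and more RNA per cell cannot be told apart.

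IGFBP4, a binding protein that inhibits IGF action until the protease PAPPA cleaves it, was high mainly in the same library. IGFBP4 (ENSG00000141753, chromosome 17, 40443461 to 40457731, plus strand) had 61.5 FPKM in shUSP16-1 and 94.5 FPKM in shUSP16-2, against 55.8 FPKM in shControl. Its ratio to shControl was 1.10 in shUSP16-1 (1.06 to 1.15) and 1.70 in shUSP16-2 (1.63 to 1.76). With sums of reads as totals the ratio in shUSP16-1 was 1.03 (0.989 to 1.08), within counting error of no difference, and that in shUSP16-2 was 1.56. In limma the log2 difference was 0.45 with an SE of 0.26 (adjusted p = 0.462). Without shUSP16-2 it was 0.14 and without shUSP16-1 it was 0.75.

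IGFBP5, the most conserved binding protein and one that also binds extracellular matrix, was higher by a like amount in both. IGFBP5 (ENSG00000115461, chromosome 2, 216672105 to 216695525, minus strand) had 44.5 FPKM in shUSP16-1 and 43.0 FPKM in shUSP16-2, against 31.4 FPKM in shControl, with at least 6585 reads in each library. The ratios to shControl were 1.42 in shUSP16-1 (1.37 to 1.46) and 1.37 in shUSP16-2 (1.32 to 1.41), and 1.33 and 1.26 with sums of reads as totals. limma gave a log2 difference of 0.46 with an SE of 0.11, the smallest SE among the members, and an adjusted p of 0.280. In limma voom this gene had an adjusted p of 0.0524 with the authors' totals and 0.0989 with sums of reads as totals. Both lay outside the threshold of 0.05. It is the member for which the libraries labelled shUSP16 were closest relative to their distance from shControl.

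The other binding proteins lay near shControl. IGFBP2, which carries an integrin-binding motif besides its IGF site, had 33.6 FPKM in shUSP16-1 and 38.1 FPKM in shUSP16-2, against 34.2 FPKM in shControl. Its limma log2 difference was 0.06 (SE 0.13, adjusted p = 0.850) and turned to -0.04 with libraries scaled to equal totals. IGFBP6, which prefers IGF2 to IGF1, had 9.07 and 9.78 FPKM in shUSP16-1 and shUSP16-2, against 10.4 FPKM in shControl, a log2 difference of -0.13 (SE 0.13, limma adjusted p = 0.646). IGFBP7, a relative that binds IGFs weakly, had 28.8 and 29.7 FPKM, against 30.9 FPKM in shControl, a log2 difference of -0.08 (SE 0.12, limma adjusted p = 0.787). IGFBP7 shares 18.9% of its exonic bases with genes on the other strand, mostly POLR2B, and whether counting used strand is not stated in the sources used. Reads of the pair could be mixed if strand was ignored, and POLR2B had 5109 and 5635 reads in shUSP16-1 and shUSP16-2, against 4309 in shControl. IGFBP1, the liver and decidua form, had 0 reads in all 3 libraries.

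Some binding protein genes are neighbours. IGFBP2 and IGFBP5 face each other tail to tail on chromosome 2 with 7.67 kb between them, and IGFBP1 and IGFBP3 on chromosome 7 with 18.6 kb between them. IGFBP4, IGFBP6 and IGFBP7 lie apart on chromosomes 17, 12 and 4. The members of a pair did not share a level: IGFBP5 was 1.37-fold or more above shControl where IGFBP2 was at most 1.11-fold above it, and IGFBP3 was expressed where IGFBP1 had 0 reads.

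**Figure D3:**
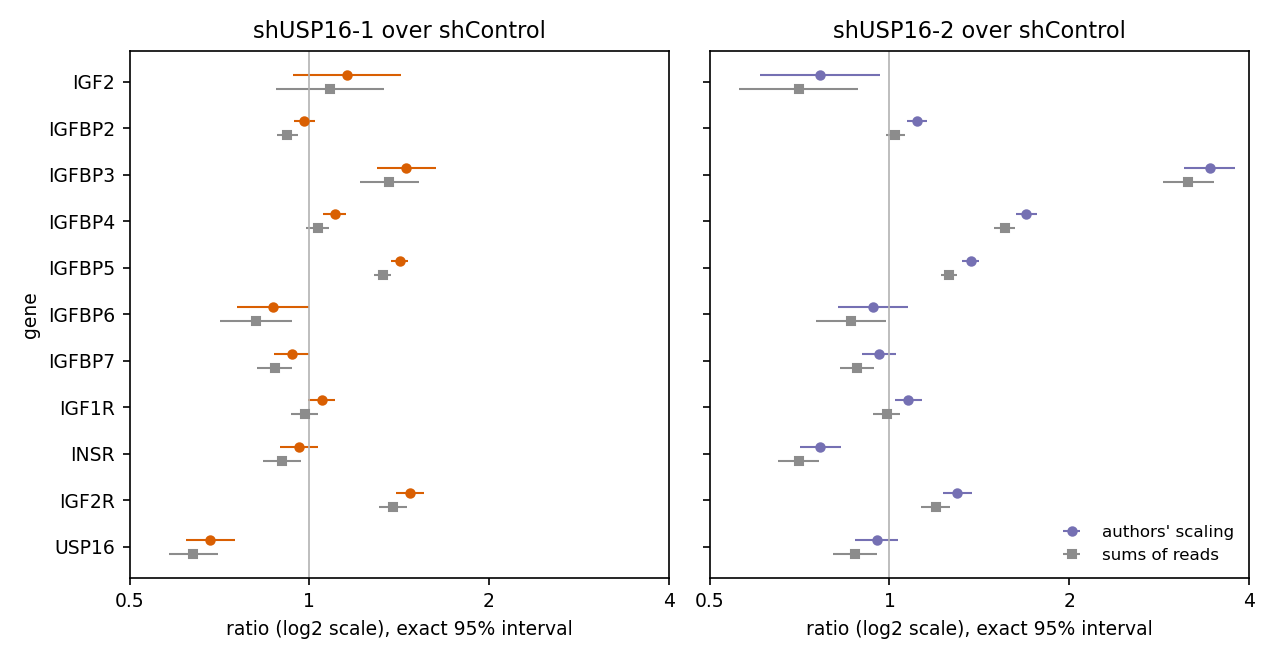
Ratio to shControl on a log2 axis for each gene in shUSP16-1 (left) and shUSP16-2 (right), with exact binomial 95% intervals, under the authors' scaling (coloured circles) and sums of reads (grey squares). IGFBP3, IGFBP5 and IGF2R lie right of 1 in both panels and under both scalings, and IGFBP3 reaches 3.44 in shUSP16-2.

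The ligand IGF2 had few counted reads. IGF2 (ENSG00000167244, chromosome 11, 2129112 to 2149603, minus strand) had 0.921 FPKM (192 reads) in shUSP16-1 and 0.610 FPKM (132 reads) in shUSP16-2, against 0.797 FPKM (181 reads) in shControl, so its mean lay under 1 FPKM and it was not tested. The groups overlapped, with shControl between the libraries labelled shUSP16. Its 95% interval of the ratio to shControl was 0.938 to 1.42 in shUSP16-1 and 0.607 to 0.964 in shUSP16-2. Of its exonic bases 73.7% also belong to other genes on the same strand, among them a further IGF2 identifier (ENSG00000284779) and INS-IGF2, both at 0 reads in all 3 libraries. Fragments in shared exons may have gone uncounted, so the level of IGF2 is uncertain. Of the other ligands, IGF1 had at most 0.01 FPKM in any library and INS had 0 reads. The imprinted RNA H19, a neighbour of IGF2, was at most 0.31 FPKM.

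Among the receptors, IGF2R was higher, IGF1R was close to shControl and INSR was lowest in shUSP16-2. IGF2R (ENSG00000197081, chromosome 6, 159969099 to 160113507, plus strand) had 5.84 FPKM (3116 reads) in shUSP16-1 and 5.15 FPKM (2847 reads) in shUSP16-2, against 3.96 FPKM (2301 reads) in shControl. Both lay above shControl, with ratios of 1.48 (1.40 to 1.56) in shUSP16-1 and 1.30 (1.23 to 1.37) in shUSP16-2, or 1.38 and 1.20 with sums of reads. limma gave a log2 difference of 0.39 with an SE of 0.14 and an adjusted p of 0.326.

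IGF1R (ENSG00000140443, chromosome 15, 98648539 to 98964530, plus strand), the receptor that mediates most IGF signalling, had 6.53 FPKM in shUSP16-1 and 6.69 FPKM in shUSP16-2, against 6.22 FPKM in shControl. The limma log2 difference of 0.08 (SE 0.12, adjusted p = 0.800) turned to -0.02 with equal totals. INSR (ENSG00000171105, chromosome 19, 7112255 to 7294034, minus strand), the insulin receptor, had 4.25 FPKM in shUSP16-1 and 3.39 FPKM in shUSP16-2, against 4.42 FPKM in shControl. Its ratio to shControl was 0.961 in shUSP16-1 (0.892 to 1.04) and 0.765 in shUSP16-2 (0.708 to 0.828). With sums of reads as totals the ratios were 0.900 (0.836 to 0.970) and 0.704 (0.651 to 0.762), so shUSP16-1 lay under shControl beyond counting error with that scaling only. limma gave a log2 difference of -0.18 (SE 0.17, adjusted p = 0.644). IGF1R exceeded INSR in FPKM 1.54-fold in shUSP16-1 and 1.98-fold in shUSP16-2, against 1.41-fold in shControl. IGF1R exceeded IGF2R 1.12-fold and 1.30-fold, against 1.57-fold in shControl, so the balance of both pairs differed in opposite directions.

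Genes around the axis were described from 7 lists that were drawn up with earlier results of these data known, and limma called 0 of their 80 tested genes. The binding protein IGFBPL1 was the only tested member of 9 other ligands, binding proteins and relatives. It had 7.01 and 9.09 FPKM in shUSP16-1 and shUSP16-2, against 6.18 FPKM in shControl (log2 difference 0.32). Of 17 proteases that cut binding proteins and their inhibitors, 9 were tested, 5 were higher in both libraries and 1 was lower in both. Over all genes tested, 44.9% were higher in both and 32.4% lower in both. STC2, an inhibitor of PAPPA, had 13.3 and 14.2 FPKM, against 10.9 FPKM in shControl, while PAPPA itself stayed at or under 0.16 FPKM. MMP14, a membrane metalloprotease, had 30.9 and 29.3 FPKM, against 25.3 FPKM in shControl, and ADAM17, a sheddase, had 3.55 and 3.51 FPKM, against 2.85 FPKM. All 3 IGF2 mRNA-binding proteins were expressed, with IGF2BP2 at 19.7 and 21.2 FPKM, against 19.6 FPKM in shControl, and IGF2BP3 at 6.50 and 6.67 FPKM, against 6.18 FPKM.

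Downstream of the receptors, adaptors and brakes were tested for 14 of 18 genes, with 7 higher in both and 4 lower in both. The shares over all genes tested were 44.9% and 32.4%, so this split says little by itself. PTPN1, a phosphatase that dephosphorylates the insulin and IGF1 receptors, had 15.5 and 15.8 FPKM in shUSP16-1 and shUSP16-2, against 11.8 FPKM in shControl. GRB2, an adaptor to RAS, had 25.6 and 26.5 FPKM, against 20.5 FPKM in shControl, and SOCS3, a feedback inhibitor, had 4.55 and 4.25 FPKM, against 6.01 FPKM. Of the main adaptors of both receptors, IRS1 had 394 and 455 reads in shUSP16-1 and shUSP16-2, against 486 in shControl, and IRS2 had 0 reads in all 3 libraries. In the PI3K, AKT and TOR list 21 of 23 genes were tested, with 7 higher in both and 6 lower in both, beside the same 44.9% and 32.4%. MTOR, the kinase of both TOR complexes, had 9.42 and 9.01 FPKM, against 6.40 FPKM in shControl (log2 difference 0.47, limma adjusted p = 0.281). GSK3A, a kinase that AKT inhibits, had 8.35 and 7.79 FPKM, against 6.21 FPKM, and RPTOR, which defines TOR complex 1, had 4.38 and 4.48 FPKM, against 3.54 FPKM.

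FOXO transcription factors are held out of the nucleus when insulin or IGF signalling activates AKT. Of 20 tested FOXO factors and targets, INSR included, 10 were lower in both libraries and 3 higher in both, where 32.4% of all genes were lower in both and 44.9% higher in both. The list's median log2 difference was -0.13, against 0.04 over all genes. Among genes with a mean of 5 FPKM or more it was -0.0033, against 0.11 over all genes of that level. TXNIP, an inhibitor of glucose uptake, had 12.7 and 21.0 FPKM in shUSP16-1 and shUSP16-2, against 29.9 FPKM in shControl (log2 difference -0.83, limma adjusted p = 0.319). KLHL24, a ubiquitin ligase adaptor, had 2.40 and 1.63 FPKM, against 3.49 FPKM in shControl (log2 difference -0.59, limma adjusted p = 0.326), and FOXO4 had 2.19 and 1.59 FPKM, against 3.13 FPKM. limma voom called TXNIP and KLHL24 lower under both kinds of total, with adjusted p values of 0.0211 and 0.0336 with the authors' totals, where 1.04% of all genes were called lower, and 3.02% with sums of reads. It called MTOR higher with the authors' totals (adjusted p = 0.0422) and not with sums of reads. TXNIP and KLHL24 are also controlled by other pathways, and AKT activity was not measured.

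IGF2R works with the enzymes that make the mannose 6-phosphate tag and with sorting proteins. The list drawn up around them also held PLAUR, FURIN and LRP1. All 13 genes of the list were tested, 9 were higher in both libraries and 1 was lower in both. Of all genes, 44.9% were higher in both and 32.4% lower in both. The list's median log2 difference was 0.17, against 0.04 over all genes. Among genes with a mean of 5 FPKM or more it was 0.14, against 0.11 over all genes of that level, a smaller gap. GNPTAB, which adds the tag, had 7.56 and 6.54 FPKM in shUSP16-1 and shUSP16-2, against 5.46 FPKM in shControl, and NAGPA, which uncovers it, had 2.75 and 2.52 FPKM, against 2.12 FPKM. VPS35, a retromer subunit that returns IGF2R from endosomes, had 11.5 and 11.1 FPKM, against 9.13 FPKM in shControl. With equal totals the list's median was 0.07, against -0.05 over all genes, so both medians were lower under that scaling. Genes higher in both were not counted with equal totals.

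**Figure D4:**
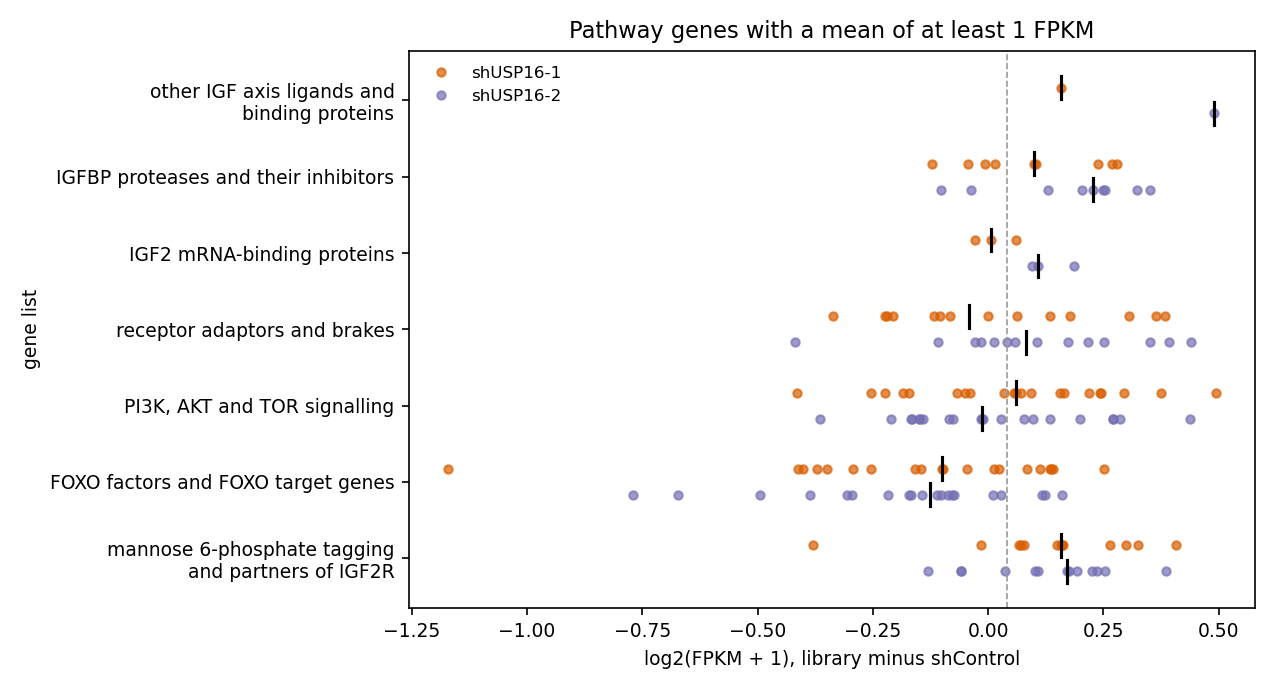
Difference from shControl in log2(FPKM + 1) for each tested gene of 7 pathway lists, in shUSP16-1 (orange) and shUSP16-2 (purple), with black bars at the list medians and a dashed line at the median of all genes (0.04). The FOXO list lies mostly left of the line, with TXNIP and KLHL24 among its lowest points, and the list of IGF2R partners mostly right of it. Over all genes with a mean of 5 FPKM or more the median is 0.11, right of the line.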

How the data were processed

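Gene expression was read from 1 table in which the authors deposited FPKM values, fragments per kilobase of gene length scaled to library size per the file headers, for 3 libraries. For the aligner, the counting tool and strand nothing is stated in the sources used. GRCm38 and mm10, which are mouse builds, stand in the submitters' processing notes, yet all 58735 gene identifiers and coordinates equal those of human GENCODE release 29 on GRCh38. Dividing FPKM times length by a constant per library gave whole numbers for 100% of values above 0 (tolerance 0.01 reads), taken as whole reads. The totals behind the authors' FPKM were 1.01 times the sum of reads in shUSP16-1, 0.994 times in shUSP16-2 and 1.08 times in shControl, so both scalings are given. The libraries labelled shUSP16 differed from each other by a chi-square per degree of freedom of 11.9 over 20974 genes and were entered as 2 libraries.

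limma 3.58.1 in R 4.3.3 was fitted with a variance trend on log2(FPKM + 1), a scale that understates changes of low genes, over the 13852 genes whose mean reached 1 FPKM, at an adjusted p of 0.05. The prior was 4.05 degrees of freedom. The scripts were tested on simulated data. An exact permutation test cannot go below 0.333 with 3 libraries. Alternatives were a pseudocount of 0.1, no filter or a mean of at least 5 FPKM, other scalings, protein-coding genes only, no trend, limma voom on recovered reads, size limits of 25% and 2-fold and leaving out each library labelled shUSP16. Named genes were the 10 members, USP16 and up to 3 per list, ranked by the smaller of their changes in the libraries labelled shUSP16. Genes named outside this rule (IGFBP1, IGF1, INS, H19, PAPPA, IRS1, IRS2, POLR2B, COL3A1 and other markers) were chosen after their values were seen. A rule naming the genes most like a member applied to members that were 1.5-fold or more away from shControl in both, and 0 qualified. The members and lists were chosen with earlier results of these data known. Promoter sequences are RefSeq's on GRCh38.p14. Other software was matplotlib 3.10.9, scipy 1.17.1, pandas 2.3.3 and numpy 2.4.6 in Python 3.11.15.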

Additional observations from a re-analysis of the deposited data

How the results depend on the processing

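limma called 0 genes over all genes. It called 13 with a mean of at least 5 FPKM and 48 among protein-coding genes alone, and limma voom called 348 with the authors' totals and 557 with sums of reads. Of the members 0 were called except IGFBP3, the 1 called by voom with sums of reads (log2 difference 1.06), and of the list genes voom called 3 with the authors' totals and 2 with sums of reads. IGFBP2 turned to -0.043 with equal totals and to -0.044 under voom with sums of reads, and IGF1R to -0.018 and -0.020. For these sign changes, lower values of the libraries labelled shUSP16 relative to shControl follow from the scaling itself, while the cause of the other moves was not tested. IGFBP2 was also at -0.026 without shUSP16-2, with the authors' scaling kept. Members other than IGFBP2 and IGF1R kept their direction in all settings run, with IGF2R and INSR left untested at a mean of at least 5 FPKM. The count of members past 1.5-fold in both libraries labelled shUSP16 was 0, and 3 were past a limit of 25% with the authors' scaling. Leaving out a library labelled shUSP16 gave counts from 0 to 2. Of the list medians, 55 alternatives moved by less than the spread between the libraries labelled shUSP16 and 22 by more. No paired analysis was possible because the lone shControl library has no partner for number 2. The lone control library and 1 residual degree of freedom limit the precision of every test, and depth limits IGF2, which had 132 to 192 reads per library.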
